A study of Rattus norvegicus with 4 samples.

Results

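Microtubule-associated proteins bind the microtubule lattice of neurons and dividing cells, where they steady the polymer, space it in bundles and direct the motors that run on it. MAP2 is the classic marker of dendrites and tau, the product of Mapt, that of axons. MAP1B is known as an early form in growing neurites and MAP1A as the form that is prominent in mature neurons. N6-methyladenosine (m6A) is the most common internal modification of mRNA and is bound by reader proteins that act on translation, transport and decay. In MeRIP-seq, fragmented RNA is captured with an m6A antibody, and the capture (the immunoprecipitate, IP) is sequenced beside the input RNA.

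The m6A peaks of 9 such genes, Map1a, Map1b, Map1s, Map2, Map4, Map6, Map7, Map9 and Mapt, were followed in the arcuate nucleus (ARC) of the hypothalamus of female Sprague-Dawley rats at 3 weeks (21 days, ARC_212) and 5 weeks (35 days, ARC_352). Members were chosen by gene name, with results of these data known, out of 14737 genes with a listed peak, and every peak of theirs was taken. They held 41 of 29653 peaks at 3 weeks, 48 of 33056 at 5 weeks, and 23 of the 12704 peaks in the table that compares the ages. Each age was 1 pool of ARC tissue from 3 rats, with 1 input and 1 IP library, 4 libraries in all. Because there was 1 library of each kind per age, no difference below has a replicate check, and none was tested. Enrichment is the log2 ratio of IP over input that the authors' peak caller gave for a peak, so that a value of 1 is 2-fold. A change is the 5-week minus the 3-week log2 enrichment, and a peak is called weaker or stronger when its enrichment differs by at least 2-fold.

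Without read counts in the tables, sequencing depth is unknown. Every listed peak has a caller p under 0.05. Over all genes the median log2 enrichment was 3.17 at 3 weeks and 2.81 at 5 weeks. Of marker genes, 5 of 8 for arcuate neurons had a peak at either age (Agrp, Ghrh and Kiss1 had none), as had 4 of 4 for neurons, 5 of 5 for oligodendrocytes, 4 of 4 for astrocytes, 4 of 4 for microglia, 2 of 3 for the ventromedial nucleus and 0 of 4 for the pituitary. By age, arcuate markers with a peak numbered 3 at 3 weeks and 5 at 5 weeks, with Pomc and Tac3 at 5 weeks only. Ventromedial markers numbered 1 and 2, with Fezf1 at 5 weeks only, and the other counts were the same at both ages. The tissue therefore held RNA of several cell types, and fewer cells of a type and less RNA per cell cannot be told apart in such a pool. Input levels of the genes were not analysed here.

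All 9 genes had peaks at both ages. The median member had 5 peaks at each age, where the median gene with a peak had 2. Map1b went from 5 listed peaks to 11, a number that 99.8% of genes with a peak at 5 weeks stayed below. Map4 had 7 and 9, Map7 7 and 6, Mapt 7 and 5, Map2 5 and 5, Map1a 3 and 4, Map9 2 and 4, Map1s 3 and 2, and Map6 2 and 2. The level of a typical member peak was that of a typical peak in the tissue, with medians of 3.12 at 3 weeks and 2.77 at 5 weeks. Their spread was wide, from 1.91 to 6.56 at 3 weeks and from 1.51 to 5.72 at 5 weeks. The top 10% of all peaks held 5 of the 41 member peaks at 3 weeks (12.2%) and 9 of the 48 at 5 weeks (18.8%).

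**Figure D1:**
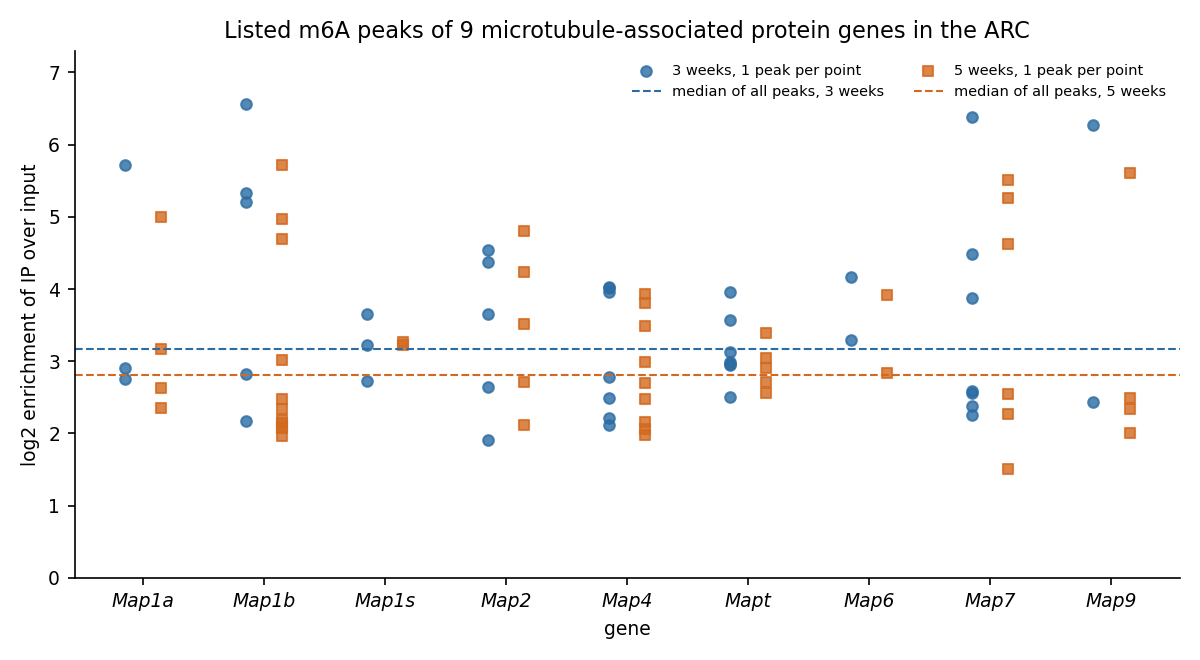
Log2 enrichment of IP over input (vertical axis) of every listed peak of the 9 genes (horizontal axis) at 3 weeks (blue circles) and 5 weeks (orange squares), with the median of all peaks of each age as a dashed line (3.17 and 2.81). The strongest peaks of Map1b, Map7, Map9 and Map1a lie above those of the other genes at both ages, while the peaks of Mapt and Map1s lie close to the dashed lines.

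Ordered by their strongest peak at 3 weeks, the members were Map1b (6.56, 94.1-fold), Map7 (6.38), Map9 (6.27), Map1a (5.72), Map2 (4.54), Map6 (4.17), Map4 (4.02), Mapt (3.96) and Map1s (3.66, 12.6-fold). At 5 weeks the order was Map1b (5.72, 52.6-fold), Map9 (5.61), Map7 (5.51), Map1a (5.00), Map2 (4.80), Map4 (3.93), Map6 (3.92), Mapt (3.39) and Map1s (3.27, 9.61-fold). The same 4 genes stood first at both ages. With no replicates, neighbours in these orders cannot be separated. Map1b had the peak with rank 974 of 29653 at 3 weeks and rank 1059 of 33056 at 5 weeks, counted from the strongest. The strongest peak was lower at 5 weeks in 8 of 9 members, all but Map2, beside 72.6% of the 12784 genes with a peak at both ages. It was taken at each age separately, and in Map1s and Map4 the ages gave different peaks. The median change was -0.57 in the members and -0.42 over all these genes. None of the 9 strongest peaks was past 2-fold, beside 19.9% of all genes weaker and 5.74% stronger.

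The MAP1 family held the strongest peak of all 9 genes. MAP1A and MAP1B are made as long precursors that are cut into a heavy and a light chain. Map1b lies on the minus strand of chromosome 2, from 30817261 to 30910317 in the positions of the deposited tables, for which no rat genome build is named in the sources used here. Its strongest listed peak at 3 weeks, annotated as exonic, spanned 11767 bases (30827630 to 30839396) at 6.56. At 5 weeks 3 peaks covered that span. They were a 3800-base peak at 5.72 (30827455 to 30831254), a 125-base peak at 2.33 and a 7967-base peak at 2.08, so the high part was the 3′ end of the 3-week span. In the same way an exonic peak of 2125 bases at 5.20 was met at 5 weeks by peaks of 1825 bases at 4.97, 100 bases at 2.15 and 100 bases at 2.09. Another strong peak, labelled 3'UTR and about 4 kb long (30819411 to 30823454), measured 5.33 and 4.70. The larger number of Map1b peaks at 5 weeks thus came partly from splitting. The 5-week peaks with no partner at 3 weeks were a 123-base peak in the 5'UTR at 3.02 and an exonic peak that spanned 62123 bases at 2.19.

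Map1a, on the plus strand of chromosome 3 (108263151 to 108282899), carried its main peak in an exonic span of 7714 bases (108273365 to 108281078) at 5.72. At 5 weeks this span was divided into a 5′ peak of 6375 bases at 5.00 and a 3′ peak of 1239 bases at 2.64. The low peaks of Map1a measured 2.75 and then 2.36 at the start codon, and 2.91 and then 3.17 in the 3'UTR at the end of the gene. Map1s, the small and widely expressed member of the family (chromosome 16, minus strand), had no peak above 3.66. Its 2 exonic peaks of 3 weeks, 2.73 and 3.66, met 1 peak of 3.22 at 5 weeks, and its terminal 3'UTR peak measured 3.22 and 3.27.

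Map2, Map4 and Mapt encode related proteins that share a type of microtubule-binding repeat. MAP4 is the form found in most tissues outside neurons. Each of the 5 peaks of Map2 had a partner at 5 weeks, and their changes lay between -0.13 and 0.26. The 5'UTR peak measured 4.54 and 4.80, the strongest 3'UTR peak 4.37 and 4.24, and the terminal 3'UTR peak 3.65 and 3.52. The remaining 3'UTR peaks measured 2.65 and 2.71, and 1.91 and 2.12. Its 3'UTR labels came from transcript models of the authors' annotation. The strongest 3'UTR peak ended 23.7 kb of genome before the 3′ end of the gene at 3 weeks. The 5'UTR peak spanned 220486 bases of genome, introns included. Peaks in the lists carry no exon blocks, so the methylated stretch inside such a span is not known.

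Map4 (chromosome 8, plus strand, 109925575 to 110064362) had 3 exonic peaks near 4 at 3 weeks, of 4.01, 3.95 and 4.02. At 5 weeks the first measured 3.93 and the last 3.49. The middle one (110023427 to 110024751) was replaced by 2 shorter peaks of 3.80 and 2.99. Mapt (chromosome 10, plus strand, 89138627 to 89236129) had neighbours joined at 5 weeks, and 1 exonic peak (2.51) that overlapped 2 peaks of 5 weeks (2.71 and 2.56). Its 5'UTR peak of 2.96 and start codon peak of 3.57 met 1 peak of 2.90, and its exonic peak of 2.99 and stop codon peak of 2.95 met 1 peak of 3.05. The strongest Mapt peak, of 1050 bases in the 3'UTR (89233697 to 89234746), measured 3.96 and then 3.39.

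Map6 encodes a protein known for making microtubules stable in the cold. Its 2 peaks, at the start and stop codons, covered nearly all of the gene (chromosome 1, 153568368 to 153634414). The start codon peak shortened from 1725 to 475 bases and measured 3.30 and 2.83, while the stop codon peak measured 4.17 and 3.92. Map9, whose product binds the mitotic spindle, had a stop codon peak that ran over 27203 bases of genome at 3 weeks (chromosome 2, 167713534 to 167740736) at 6.27. At 5 weeks it measured 5.61, with a separate 124-base peak of 2.00 at the end of the gene.

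Map7 encodes a protein that brings kinesin-1 to microtubules. In this gene (chromosome 1, plus strand, 14910551 to 15037574) 2 peaks were higher and 4 were lower at 5 weeks, and the 4 long ones had nearly the same boundaries at both ages. The 5'UTR peak (14931833 to 14966879) measured 4.48 and 5.27, a change of 0.78. The neighbouring exonic peak measured 3.87 and 4.63, a change of 0.75. The strongest peak, exonic and 8424 bases long (15026160 to 15034583), measured 6.38 and 5.51, a change of -0.87. The terminal 3'UTR peak measured 2.26 and 1.51, a change of -0.75. The remaining pairs changed little, from 2.38 to 2.27 in an exonic peak and from 2.59 to 2.55 in the 3'UTR, and a 200-base 3'UTR peak of 2.56 at 3 weeks had no partner.

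**Figure D2:**
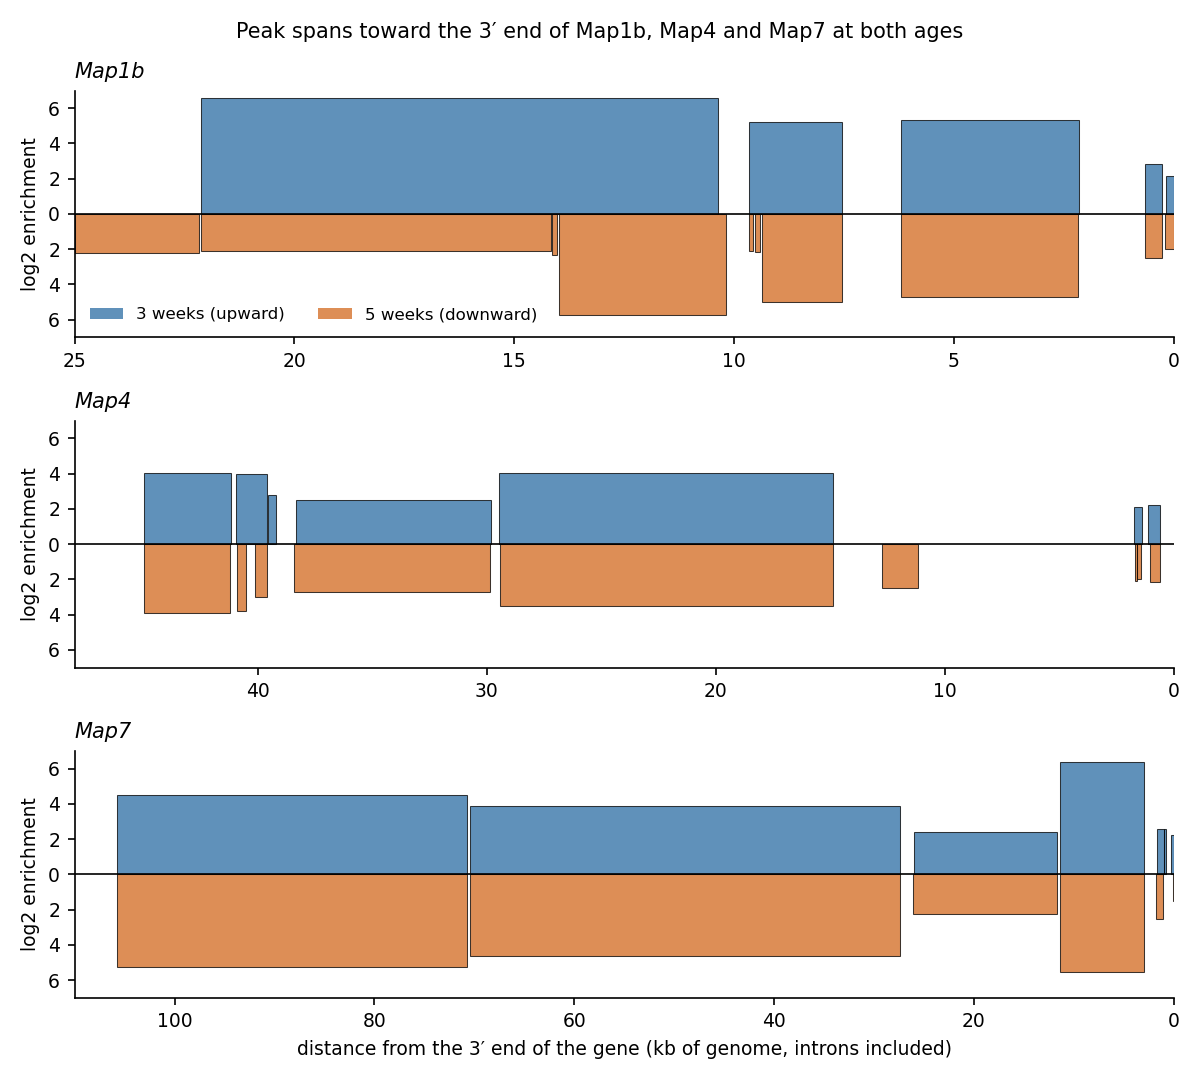
Spans of the listed peaks (bar width) of Map1b, Map4 and Map7 against distance from the 3′ end of the gene in kb of genome, with log2 enrichment as bar height, upward for 3 weeks and downward for 5 weeks, each gene cut to its 3′ part. The 11767-base peak of Map1b at 6.56 faces 3 peaks at 5 weeks, of which only the 3800-base one is high (5.72), while the 4 long Map7 spans nearly match between the ages.

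Of the 41 member peaks of 3 weeks, 39 overlapped a 5-week peak of the same gene by at least 1 base (95.1%, 95% Wilson interval 83.9 to 98.7), beside 82.8% of all peaks. In the other direction 45 of 48 did (93.8%), beside 74.3%. Among the 41 member peaks of 3 weeks, 9 overlapped at least 2 peaks of 5 weeks (22.0%), beside 7.36% of all, and 5 of 48 did in the reverse direction (10.4%), beside 6.84%. The 9 lay in Map1a, Map1b, Map4, Map6, Map9 and Mapt. The median span of a member peak was 3791 bases at 3 weeks and 1618 at 5 weeks, beside 925 and 875 for all peaks, and its part in the shares was not tested. The intervals cover counting error over peaks only.

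By position, 3 of 41 member peaks at 3 weeks (7.32%, interval 2.52 to 19.4) and 3 of 48 at 5 weeks (6.25%, interval 2.15 to 16.8) carried the label of the stop codon. Over all peaks it was 24.6% and 22.9%. These were the peaks of Map6, Map9 and Mapt at each age. The share is counted per peak, and the members had a median of 5 peaks per gene, beside 2 over all genes. The part of this in the low share was not tested. Exonic peaks made up 14 of the 41 and 20 of the 48 (34.1% and 41.7%), beside 27.8% and 29.7% of all peaks. Those labelled 3'UTR made up 16 and 17 (39.0% and 35.4%), beside 26.2% and 27.3%. In the 5'UTR there were 4 and 5 (9.76% and 10.4%), beside 8.12% and 7.49%. Start codon peaks numbered 4 and 3 (9.76% and 6.25%), beside 8.46% and 7.85%. The 3'UTR label includes peaks inside a gene. At 3 weeks such a peak of Map2 ended 23.7 kb, and such a peak of Mapt 40.9 kb, before the 3′ end of its gene. The strongest peaks of Map1a, Map1b, Map4 and Map7 were exonic at both ages. Exonic member peaks had a median of 3.91 at 3 weeks, beside 2.91 for all exonic peaks, and 2.81 at 5 weeks, beside 2.62. These medians are not over matched peaks. Map1b alone went from 2 exonic peaks to 7, partly by splitting into low pieces.

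The table that compares the ages gives 1 common set of peaks with a value at each age, and it holds at least 1 peak of every member. Every p in it is under 0.05, and its p-values stand beside the authors' own log2 difference between the ages. If these p-values measure that difference, peaks that differ between the ages are favoured, which was not tested. The table thus holds a selected share of the peaks, and its shares are not like those of the lists. It was reached by 22 of the 41 member peaks of 3 weeks (53.7%), beside 39.5% of all, and by 1 of the 5 of Map2. In it 22 of 23 member peaks were lower at 5 weeks, beside 82% of all 12704 peaks. Weaker peaks numbered 8 of 23 (34.8%), beside 46.9% of all, and 0 were stronger, beside 10.6%. The median change was -0.68, less than the -0.95 of all peaks. Centred on that median, 0 member peaks were weaker, beside 13.3% of all, and 1 was stronger, beside 18%. Centred on the median change of peaks paired between the lists (-0.27), 1 was weaker, the 3'UTR peak of Map9, beside 31.2%.

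The 8 weaker peaks belonged to 6 of the 9 genes, beside 55.6% of 8592 genes with at least 1 weaker peak. In the MAP1 family they were the main exonic peaks of Map1a (5.74 to 4.64, change -1.10) and Map1b (6.55 to 5.53, change -1.02). Map4 had an exonic peak of 825 bases (4.12 to 3.01, change -1.10) and a 3'UTR peak of 300 bases (2.54 to 1.28, change -1.26). The start codon peak of Map6 went from 3.58 to 2.41, a change of -1.17. The main exonic peak of Map7 went from 6.37 to 5.32, a change of -1.05. Map9 had a stop codon peak (6.46 to 5.31, change -1.15) and a 3'UTR peak of 249 bases with the largest change of the members (2.73 to 1.43, change -1.30). Nearest to the 2-fold limit lay the Map1b peak inside it, at -1.02, and the 3'UTR peak of Mapt outside it, at -0.86 (4.00 to 3.14).

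Among the other member peaks of this table, the leading one of Map4 was nearly level (4.04 to 3.75, change -0.29), as was that of Map2 (4.41 to 4.09, change -0.32). Map1s had 1 peak, from 3.48 to 2.85. The 6 peaks of Map1b were all lower, by -1.02 to -0.46, and the 3 of Mapt by -0.86 to -0.62. The 1 member peak that was higher was the long exonic peak of Map7, from 3.85 to 4.46 (change 0.60). Of the 6 members with at least 2 peaks in the table, Map7 alone had peaks in both directions, beside 29.5% of 2854 genes. Taking the peak with the largest mean enrichment of each gene, 5 of 9 members were weaker (Map1a, Map1b, Map6, Map7 and Map9), beside 48.7% of 8592 genes, and 0 were stronger, beside 9.31%. For Map6 and Map2 this is not the strongest listed peak, since the Map6 stop codon peak (4.17 and 3.92 in the lists) and the Map2 5'UTR peak (4.54 and 4.80) are not in the comparison table. At 5 weeks the leading peak of Map1s (3.22 in the lists) was also below its 3'UTR peak (3.27). At 3 weeks that of Map4 (4.01) was just below another exonic peak (4.02).

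**Figure D3:**
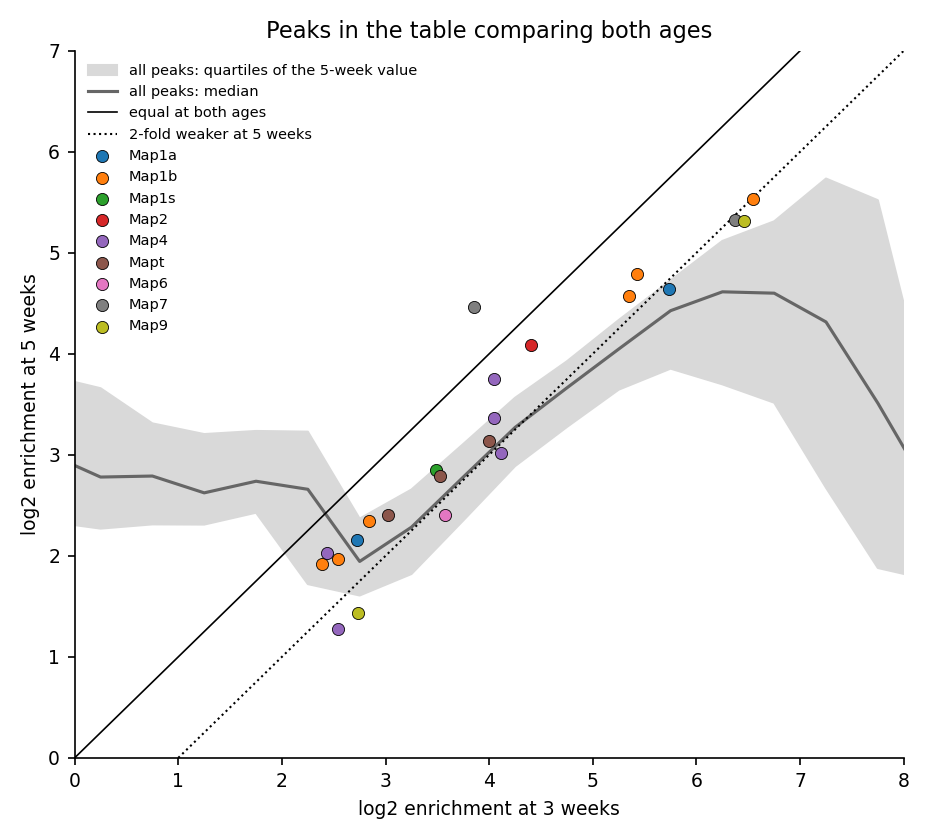
Log2 enrichment at 3 weeks (horizontal axis) and 5 weeks (vertical axis) of the 23 member peaks in the table comparing the ages, coloured by gene, with the median and the quartiles of all 12704 peaks in steps of the 3-week value (steps with at least 20 peaks), a solid line for equal values and a dotted line for 2-fold weaker. All points but 1, a Map7 peak at 3.85 and 4.46, lie below the solid line, and those at 5 or more at 3 weeks lie above the grey line.

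The change varied with the 3-week level, over all peaks and in the members, and the 3-week value enters both quantities. For 3-week values of at least 5, the 6 member peaks had a median change of -1.03 and 4 were weaker, beside -1.40 and 75.8% of 2763 peaks. Between 3 and 5 the 10 member peaks had a median of -0.66, a ratio of 0.634, and 2 were weaker, beside a ratio of 0.499 (5 over 3 weeks) and 50.1% of 6668. Below 3 all 7 member peaks were lower, with a median of -0.57 and 2 weaker. Over all 3273 peaks the median was 0.64, 41.3% were lower and 15.8% were weaker, but these ranges differ. The 7 started between 2.38 and 2.84, while the 3273 ran down to the step that begins at -3.5. In the step from 2.5 to 3, all 1294 peaks had a median 5-week value of 1.94 (quartiles 1.61 and 2.37). The member peaks in that step measured 1.28 to 2.34. Among the 6 strong peaks, those of Map1b, Map1a, Map7 and Map9, the 5-week value stayed at 4.57 or above.

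The separate lists of the ages gave smaller changes. Pairing each 3-week peak with the 5-week peak of longest overlap gave 39 member pairs with a median change of -0.13, beside -0.27 over 24567 pairs. Of these, 26 were lower, beside 65.7% of all, 1 was weaker, beside 14.9%, and 0 were stronger, beside 6.89%. The 1 weaker pair set the 11767-base Map1b peak (6.56) against its long low part at 5 weeks (2.08). Against the strongest part (5.72) the change was -0.84, and 0 member pairs were then weaker, beside 13.8% of all. With the strongest partner of each 3-week peak, every member but Map1b had changes on both sides of 0. Of the 22 member pairs in which neither peak overlapped another, 0 were weaker, beside 14.2%. The 8 weaker peaks of the comparison table were also followed into the lists by the strongest listed peak of each age that overlaps their span there. By this rule the main peaks of Map1a, Map1b and Map7 and the stop codon peak of Map9 changed by -0.73, -0.84, -0.87 and -0.66. The exonic peak of Map4 changed by -0.96 and its 3'UTR peak by -0.05 (2.11 to 2.07). With the strongest partner of the whole 3-week peak, the exonic Map4 change was -0.15. The start codon peak of Map6 changed by -0.46 (3.30 to 2.83), but the 3-week peak also overlaps the 5-week stop codon peak, and both pairings of the lists set it against that one, with a change of 0.62. The 3'UTR peak of Map9 has no listed peak of its own at 3 weeks, where it lies within the long stop codon peak, so it gives no comparable change.

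Both sources can be set against each other where they list the same span. At 3 weeks the 6 such member peaks differed by a median of 0.004 log2 units (comparison table minus list), from -0.03 to 0.03. Over all 2408 such peaks of 3 weeks the median was 0.02, from -0.60 to 0.10, and 33.6% were lower in the comparison table. At 5 weeks all 7 such member peaks were lower in the comparison table than in the list, by -0.38 to -0.13 with a median of -0.18. Over all genes the same held for 2620 of 2620 peaks, with a median of -0.17. The Map7 peak that was weaker at -1.05 is a direct example, since its span is the same in all 3 tables. Its 3-week values were 6.37 and 6.38, and its 5-week values were 5.32 in the comparison table and 5.51 in the list. Calls just past 2-fold, such as those of Map1b and Map7, are therefore within the difference between the sources.

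**Figure D4:**
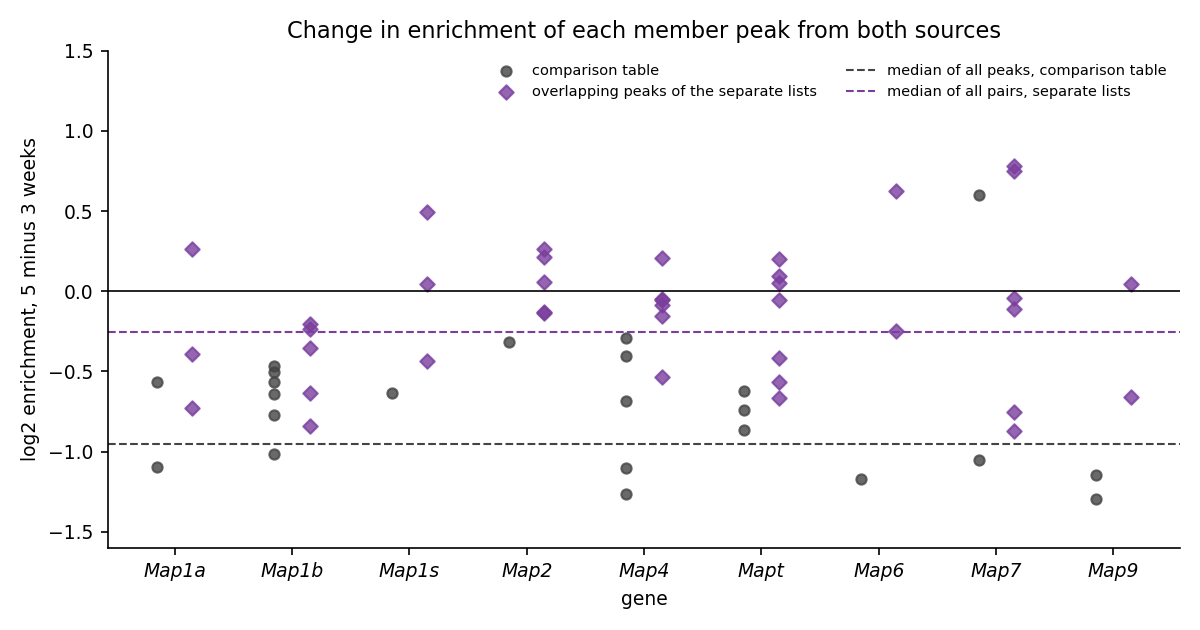
Change in log2 enrichment, 5 minus 3 weeks (vertical axis), of the member peaks by gene (horizontal axis), in the comparison table (grey circles) and for each 3-week peak with its strongest overlapping 5-week peak in the separate lists (purple diamonds), with the medians of all peaks as dashed lines (-0.95 and -0.25). The circles lie lower than the diamonds in most genes, and Map7 has points on both sides of 0 in both sources. The diamonds of every gene but Map1b lie on both sides of 0.

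Other genes of microtubule regulation were described in 5 lists of 52 genes, by the peak of largest mean enrichment in the comparison table, for which 48.7% of all genes were weaker and 9.31% stronger. Of the doublecortin family and stathmins, 6 of 8 genes were in the table, 3 of them weaker by their leading peak and 0 stronger. They were Dclk3 (5.30 to 4.18) and Dclk2 (5.09 to 2.82), doublecortin-like kinases, and Stmn3 (4.79 to 2.10), a stathmin of neurons, a family that binds free tubulin. Of 12 further microtubule-associated proteins in the table, 4 were weaker and 1 stronger. Map7d2, a relative of Map7, stood first with an exonic peak of 7.70 at 3 weeks and 6.09 at 5 weeks. Gas2l1, which links actin to microtubules, followed (5.76 to 4.10), and then Mtcl1, a microtubule crosslinking factor (4.98 to 3.98). The 1 stronger gene, named after its values were seen, was Map10 (3.28 to 4.69).

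Of the plus-end tracking proteins 1 of 6 was weaker and 0 were stronger, the 1 being Clip2 (3.85 to 0.90). Of the minus-end proteins and severing enzymes 2 of 7 were weaker and 1 stronger. These were Fign, the severing enzyme fidgetin (5.05 to 3.73), Camsap3, a minus-end binder (4.85 to 3.33), and Katna1, the catalytic subunit of katanin, which went from 0.38 to 2.66 and had no listed peak at 3 weeks. Among kinases and phosphatases that act on these proteins, 7 of 13 were weaker and 0 stronger, a share of weaker genes near that of all genes. They include Ppp2ca, the catalytic subunit of protein phosphatase PP2A (6.35 to 5.25), Mark1 (5.63 to 3.82) and Dyrk1a (4.95 to 3.70), kinases of tau. Median changes of the leading peaks were -0.94, -0.76, -0.66, -0.93 and -1.05 in the order of the lists above, beside -0.99 over all genes and -1.02 in the 9 members.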

How the data were processed

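MeRIP-seq was done on poly(A) RNA of 1 pool of 3 rats per age, with 150-base paired reads. Reads were trimmed, and the paper names Cutadapt for the reads. The submitters' processing notes instead name fastp 0.19.4, with HISAT2 2.0.4. They also name a human genome build, although the tables use rat chromosomes and rat gene identifiers. No peak caller, scaling between libraries or annotation release is named in the sources used here. For each peak the authors deposited the log2 enrichment of IP over input, with the caller's p-value and adjusted p-value (deposited as such), in 1 list per age. The log2 enrichment at each age is also given in 1 table of the comparison. That table also holds the authors' own log2 difference, p-values and direction calls, which were not used: changes were recomputed from its enrichment at each age. Listed starts count from 0 and were raised by 1.

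The members and lists were chosen with earlier results of these data known. Members were matched by gene symbol, all peaks were taken, and genes were counted by identifier. Of each other list up to 3 genes were named whose leading peak was past 2-fold, in order of mean enrichment. Peaks overlapped when whole spans of 1 gene and strand shared at least 1 base. The pairing was tested on simulated data. Shares have 95% Wilson intervals. Samples were grouped by age from their titles, and with 1 library per group no test was run. Alternatives covered the peaks counted, the fold limit, centring, the overlap and the value per gene. Peak sequences were not used here. Python 3.11.15, numpy 2.4.6, pandas 2.3.3, scipy 1.17.1 and matplotlib 3.10.9 were used.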

Additional observations from a re-analysis of the deposited data

How the results depend on the processing

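No paired analysis was possible because each age is 1 pool. At a 1.5-fold limit 15 of 23 member peaks were weaker (73% of all peaks) and 1 stronger (15.3%) in the comparison table, and at 3-fold 0 were weaker (20%). Centring on the median of all its peaks (-0.95) gave 0 weaker (beside 13.3% of all) and 1 stronger, the Map7 peak (beside 18%), with a median change of 0.27. Centred on the median of all paired peaks (-0.27), 1 was weaker (beside 31.2%) and the median was -0.41, and for the lists 0.14. The median of leading peaks was -1.02. The 5 weaker leading peaks became 0 by the strongest listed peaks over the same spans (28.7% of 7611 genes) and 0 after centring on all (13.1%), where changes ran from -0.22 to 0.66. With 50% of both spans shared, 70.7% of the 41 member peaks of 3 weeks had a partner, beside 58.1% of all. Choices made after seeing the data, the strongest partner and pairs that overlap nothing else, gave medians of -0.11 and -0.10, with 0 weaker each. The median level was 3.17 at 3 weeks at an adjusted p of at most 1e-05. By the strongest peak of each gene it was 4.54 at 3 weeks and 4.80 at 5 weeks, both values being those of Map2. Map2 alone among the members had a higher strongest peak at 5 weeks. With neither depth nor replicates, library differences and age cannot be told apart.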
